A study of Mus musculus with 53 samples.

Results

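Described here are 10 transcription factor genes of the early growth response (EGR), Krüppel-like factor (KLF) and NR4A families, with Myc, in the adult mouse heart. They were chosen by name and are Egr1, Egr2, Egr3, Klf2, Klf4, Klf6, Klf10, Klf15, Nr4a1 and Myc, which make up 10 of the 34306 genes in the table. The study compared RNA on tagged ribosomes, recovered by translating ribosome affinity purification (TRAP), with input, the total cytoplasmic RNA, in hearts of mice in which Cre recombinase switches on the ribosome tag. It also compared hearts of male mice whose ascending aorta was tied (band), which puts the left ventricle under pressure overload, with hearts of males that had the same operation without the ligature (sham). The CAG hearts carry the tag in all lineages, and the Tie2 hearts carry it in cells in which Tie2-Cre is active, a driver used for endothelial cells that is also known to act in blood cell lineages. Values come from 12 libraries. Operated CAG hearts gave 2 libraries each for band TRAP, band input, sham TRAP and sham input. Adult mice with no operation named gave 1 library each for CAG TRAP, CAG input, Tie2 TRAP and Tie2 input. The sources used here do not give the time between operation and collection, and the genetic background (129/C57BL mixed) is stated only for samples of an earlier deposit of the same series. RNA was pooled before library preparation. Separate mice behind the libraries of a group are not stated, and p-values therefore cover only the spread from library to library, which may be technical.

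EGR proteins are zinc finger factors made within minutes of a growth factor or stretch signal. ERK kinases act on serum response factor and its partners at CArG boxes in their promoters, and the NAB proteins bind EGR factors and curb them. KLF proteins bind GC-rich and CACCC sequences. Klf2 and Klf4 are induced in endothelium by steady blood flow, and Klf15 is known in heart muscle as a brake on hypertrophic growth that follows the daily rhythm and glucocorticoids. NR4A receptors are nuclear receptors induced by cyclic AMP and calcium signals, and MYC, also an early gene, drives ribosome production and growth.

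Levels are RPKM (reads per kilobase of transcript, scaled to library size) as deposited by the authors. The libraries held 26568988 to 94878619 reads. Tests are limma's moderated test on log2(RPKM + 1) in 1 fit over all 12 libraries, with p adjusted by the Benjamini-Hochberg method over the 11654 genes that reached 1 RPKM in at least 2 libraries, with calls made where the adjusted p was under 0.05. That filter kept 8 of the 10 genes and left out Egr2 and Egr3. For genes near or below 1 RPKM a difference on this scale understates the change, so ratios of mean RPKM are given beside it. The pair of band TRAP libraries differed most from each other (median absolute difference 0.216 on the log2 scale, against 0.070 to 0.098 in the other 3 pairs). Cardiomyocyte markers (Myh6, Tnnt2 and others, 7 in all) summed to 45580 to 62910 RPKM in every library but Tie2 TRAP, where they summed to 3113 RPKM. In whole-heart RNA, fewer cells of a type and less RNA per cell cannot be told apart.

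After banding, Egr1 and Myc were called higher than after sham surgery in both input and TRAP RNA, and Klf15 was called lower in input RNA. These calls differ in how far they hold under other settings: the Myc call in input was kept in 8 of 12 alternatives, the Egr1 call in input in 4 of 12 and the Klf15 call in 5 of 13. Of the 8 genes tested, 2 were called higher and 1 lower in input RNA, where 2.44% of all genes tested were called higher and 1.65% lower. In TRAP RNA 2 of 8 were called higher, where 2.21% of all genes were, and Klf15 was not called. Klf2, Klf4, Klf6, Klf10 and Nr4a1 did not pass the test in either fraction.

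**Figure D1:**
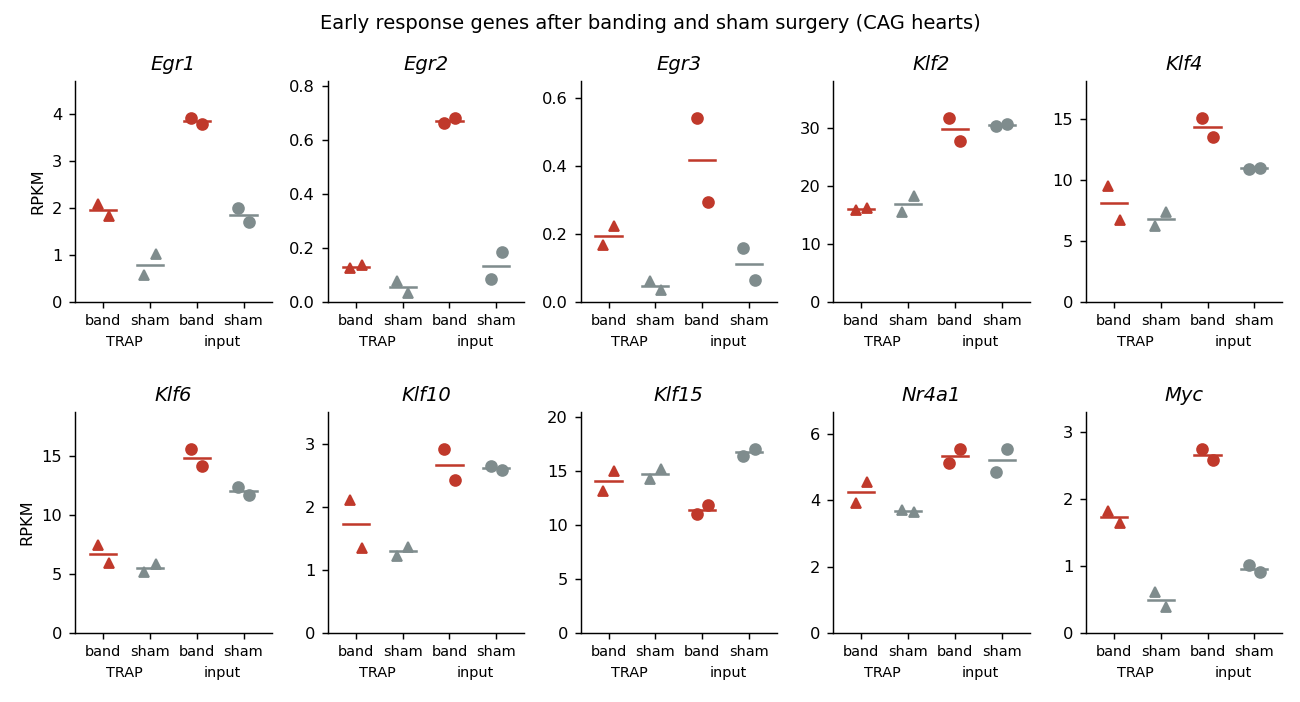
RPKM of the 10 genes in CAG hearts, with each point 1 library, triangles TRAP and circles input, red band and grey sham, lines the mean of 2 libraries, and axes from 0. Both band libraries lay above both sham libraries for Egr1 and Myc in each fraction, and both band libraries lay below both sham libraries for Klf15 in input RNA, while its TRAP values overlapped.

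Egr1, induced in heart muscle by stretch and hypertrophic agonists, had 3.92 and 3.79 RPKM in band input, against 1.99 and 1.70 RPKM in sham input. In TRAP RNA it had 2.09 and 1.83 RPKM after banding, against 0.56 and 1.01 RPKM after sham surgery. Both band libraries stood above both sham libraries in each fraction. The ratio of means was 2.49 in TRAP RNA and 2.09 in input, where the log2(RPKM + 1) difference was 0.77 (SE 0.14; limma adjusted p = 0.0291). The TRAP difference was 0.74 (SE 0.14; limma adjusted p = 0.0381). With any 1 of the 4 input libraries left out the input call was lost, at adjusted p between 0.144 and 0.236 from limma with differences of 0.70 to 0.85. It was also lost with the replicate block (limma adjusted p = 0.0623), a pseudocount of 0.1 (0.0796) and no filter on low values (0.0844, and 0.0521 with limma-voom). Of the 4 fits without 1 TRAP library, 2 kept the TRAP call, and the limma adjusted p ran from 0.0180 to 0.189. The TRAP call was lost with the replicate block (limma adjusted p = 0.0754) and with no filter (0.115).

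Egr2 was scarce. It had 0.66 and 0.68 RPKM in band input (56 and 73 reads), against 0.083 and 0.18 RPKM in sham input (12 and 18 reads). The groups did not overlap, and the ratio of means was 5.03. In band TRAP it had 0.12 and 0.13 RPKM (14 and 19 reads), against 0.076 and 0.032 RPKM in sham TRAP (8 and 4 reads). A fit with no filter on low values called Egr2 higher after banding in input RNA, with a log2(RPKM + 1) difference of 0.56 (SE 0.05; limma adjusted p = 0.0205), where 1.11% of the 25217 genes in that fit were called higher. That fit did not call Egr1 in either fraction or Klf15 in input (limma adjusted p = 0.0571), and it called Myc in both, so the calls of Egr2 and those of Egr1 and Klf15 come from different fits. Precision weights on the recovered reads (limma-voom), also without the filter, gave a log2 fold change of 2.47 (SE 0.45; adjusted p = 0.0432). In TRAP RNA the same unfiltered limma fit gave 0.10 (SE 0.05; adjusted p = 0.512). The TRAP to input ratio of Egr2 changed with banding by a log2 difference of −0.46 (SE 0.07), which was not called (limma adjusted p = 0.277). Leaving out libraries, the replicate block, the other scalings and the pseudocount of 0.1 were run on the filtered genes only. Egr2 and Egr3 were therefore not put through these alternatives, and how far the Egr2 call holds under them is not known.

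Egr3, close kin of Egr1 and Egr2, was scarcer still, with 0.54 and 0.29 RPKM in band input (22 and 15 reads), against 0.16 and 0.064 RPKM in sham input (11 and 3 reads). Its TRAP values were 0.17 and 0.22 RPKM after banding (9 and 15 reads), against 0.060 and 0.034 RPKM after sham surgery (3 and 2 reads). Both band libraries were above both sham libraries in each fraction, but Egr3 was not called without the filter (limma adjusted p = 0.179 in input and 0.542 in TRAP RNA).

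Myc had 2.75 and 2.58 RPKM in band input, against 1.02 and 0.91 RPKM in sham input, a ratio of means of 2.77. In TRAP RNA it had 1.82 and 1.65 RPKM after banding, against 0.60 and 0.39 RPKM after sham surgery, a ratio of 3.49. The lowest band TRAP library stood above the highest sham input library. The log2(RPKM + 1) differences were 0.90 in input (SE 0.11; limma adjusted p = 0.00901) and 0.87 in TRAP RNA (SE 0.11; limma adjusted p = 0.00917), the lowest adjusted p among the members in either fraction. Without 1 library at a time the limma adjusted p was 0.0670 to 0.113 in input and 0.00604 to 0.0955 in TRAP RNA, so that 0 of 4 and 2 of 4 fits kept the call. Summed macrophage and leukocyte markers (Ptprc, Csf1r and others, 7 in all) were 269.5 and 323.4 RPKM in band input, against 246.4 and 247.3 RPKM in sham input. In TRAP RNA they overlapped, at 140.2 and 150.1 RPKM after banding, against 142.3 and 145.1 RPKM after sham surgery. None of these markers was at 0, and their part in the input values was not tested.

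Nr4a1, an orphan receptor also called Nur77, had 5.13 and 5.55 RPKM in band input, against 4.87 and 5.55 RPKM in sham input, and the groups overlapped. Its TRAP values were 3.91 and 4.57 RPKM after banding, against 3.70 and 3.65 RPKM after sham surgery, without overlap. The log2(RPKM + 1) differences of 0.03 (SE 0.10) in input and 0.16 (SE 0.10) in TRAP RNA were not called (limma adjusted p = 0.919 and 0.460).

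Among the KLF genes, Klf15 was the one called. It had 11.0 and 11.8 RPKM in band input, against 16.4 and 17.0 RPKM in sham input, a ratio of means of 0.682. In TRAP RNA it had 13.1 and 15.0 RPKM after banding, against 14.2 and 15.2 RPKM after sham surgery, and these overlapped. The input difference was −0.51 on the log2(RPKM + 1) scale (SE 0.10; limma adjusted p = 0.0334) and the TRAP difference −0.06 (SE 0.10; limma adjusted p = 0.793). Each of the 4 fits without 1 input library lost the call (limma adjusted p = 0.127 to 0.258, differences −0.56 to −0.47). The call was also lost with TMM scaling (limma adjusted p = 0.0797), with the length trend removed (0.0544) and with no filter (0.0571, and 0.0770 with limma-voom). The difference between the fractions was itself tested, as the effect of banding on the ratio of TRAP to input. It was 0.45 (SE 0.14) for Klf15 and was not called (limma adjusted p = 0.901). That test called 0 of 11654 genes, 0% of those tested, at an adjusted p under 0.05 by limma and 0 by limma-voom. At an unadjusted p under 0.05 it counted 557 of 11654 genes by limma and 471 of 11654 by limma-voom. These counts are no more than that threshold alone would pass with no effect in any gene. Among them was 1 member by each tool, by limma Klf15, and its place there carries no weight.

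Klf4 had 15.1 and 13.5 RPKM in band input, against 10.9 and 11.0 RPKM in sham input, without overlap. The difference of 0.36 (SE 0.16) was not called (limma adjusted p = 0.282). Klf6, an injury-induced factor, had 15.6 and 14.2 RPKM in band input, against 12.4 and 11.7 RPKM in sham input, also without overlap (difference 0.29, SE 0.12; limma adjusted p = 0.262). Klf10, first described as a gene induced by TGF-beta, overlapped between band and sham in input RNA, with means of 2.68 ± 0.35 and 2.62 ± 0.05 RPKM (SD, n = 2 each). Klf2 overlapped as well, at 31.8 and 27.8 RPKM in band input, against 30.4 and 30.8 RPKM in sham input. In TRAP RNA the 2 band libraries were far apart for Klf4 (9.51 and 6.68 RPKM), Klf6 (7.48 and 5.92 RPKM) and Klf10 (2.12 and 1.35 RPKM), and library 2, the lower of the pair, overlapped the sham libraries of Klf4 and Klf10. Without band TRAP library 2, which leaves 1 library in that group, the log2(RPKM + 1) differences from sham were 0.44, 0.39 and 0.44. With both libraries they were 0.21, 0.24 and 0.24 and were not called (limma adjusted p = 0.534, 0.333 and 0.443).

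**Figure D2:**
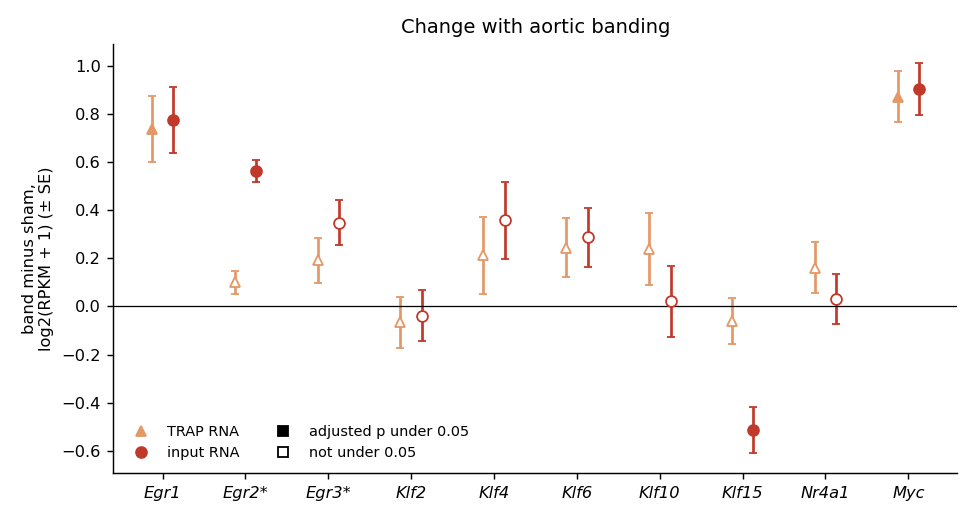
Band minus sham difference on the log2(RPKM + 1) scale with its SE from limma, triangles for TRAP and circles for input RNA, filled where the adjusted p was under 0.05; starred genes come from the fit with no filter, which does not call Egr1 or Klf15, and the others from the filtered fit. Egr1 and Myc were called higher in both fractions, Egr2 in input, and Klf15 was called lower in input.

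Of 38 other early response genes listed (Fos, Jun, Ier and Dusp genes and others), 32 passed the filter. In input RNA 12 were called higher and 2 lower after banding, where 2.44% of all genes were called higher and 1.65% lower, with a median difference of 0.44 against −0.01 over all genes tested. In TRAP RNA, 12 were called higher and 1 lower, where 2.21% of all genes were called higher and 1.56% lower, with a median of 0.34 against −0.01. Gadd45g, a stress and growth arrest gene, averaged 45.8 ± 0.4 RPKM in band input and 12.8 ± 0.8 RPKM in sham input (SD, n = 2 each; limma adjusted p = 0.00408). Ctgf, a matricellular growth factor, averaged 35.9 ± 0.6 RPKM in band input and 11.5 ± 0.1 RPKM in sham input (SD, n = 2 each; limma adjusted p = 0.00282). Atf3, a stress-induced bZIP factor, averaged 5.48 ± 0.01 RPKM in band TRAP and 1.66 ± 0.18 RPKM in sham TRAP (SD, n = 2 each; limma adjusted p = 0.00246). Against that direction, Gadd45a was called lower in both fractions and Dusp1, a phosphatase that shuts off MAP kinases, was called lower in input at 15.7 ± 1.6 RPKM after banding and 21.8 ± 0.9 RPKM after sham surgery (SD, n = 2 each; limma adjusted p = 0.0438).

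**Figure D3:**
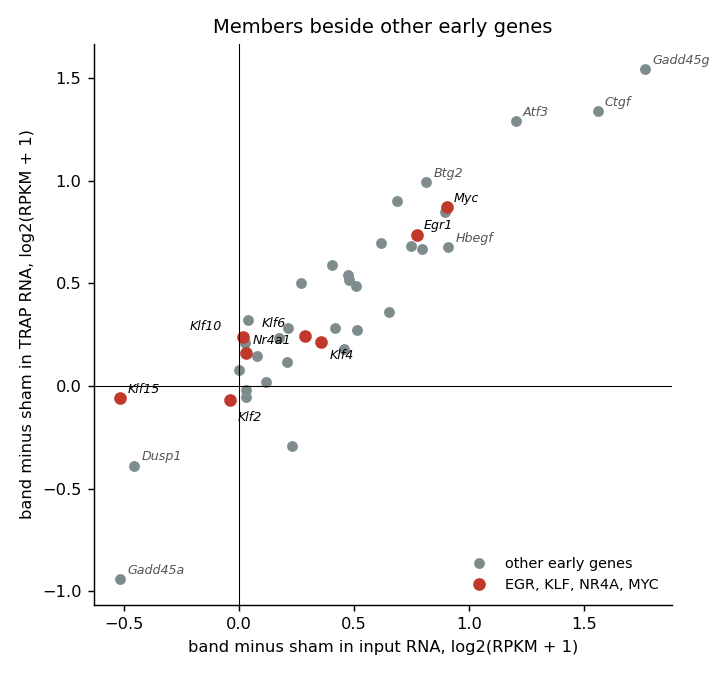
Band minus sham difference on the log2(RPKM + 1) scale in input RNA (x) and TRAP RNA (y), red for the 8 members that passed the filter and grey for 32 other early genes. Egr1 and Myc lie near the upper right, below Gadd45g, Ctgf and Atf3, and Klf15 lies at −0.51 in input and −0.06 in TRAP RNA.

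Lists of upstream, partner and target genes were counted in the same way. The shares to set beside them are those of all genes tested with banding. They were 2.44% called higher and 1.65% lower in input RNA, and 2.21% higher and 1.56% lower in TRAP RNA. Of 12 listed inducers (ERK kinases, Srf with its cofactors, CREB genes), 0 of 12 tested were called with banding in either fraction by limma, and neither were Nab1 and Nab2 or any of the 6 other KLF genes that passed the filter. Among 12 genes reported as MYC targets, 1 was called in input, Odc1, the rate-limiting enzyme of polyamine synthesis, at 20.3 ± 1.6 RPKM after banding and 14.0 ± 0.8 RPKM after sham surgery (SD, n = 2 each; limma adjusted p = 0.0406), and 0 in TRAP RNA. Of 7 MYC partners and antagonists tested, Mxi1, which competes with MYC for its partner MAX, was called lower in input, at 4.0 ± 0.48 RPKM after banding and 6.52 ± 0.56 RPKM after sham surgery (SD, n = 2 each; limma adjusted p = 0.0277). The single CAG input library without surgery had 3.73 RPKM of Mxi1, nearer the band than the sham value. Of 8 metabolic and channel genes reported under Klf15 control, Kcnip2, a potassium channel subunit, was called lower in both fractions. It averaged 41.0 ± 2.6 RPKM in band input and 67.4 ± 2.7 RPKM in sham input (SD, n = 2 each; limma adjusted p = 0.0164), and 57.7 ± 6.5 RPKM in band TRAP and 90.9 ± 0.1 RPKM in sham TRAP (SD, n = 2 each; limma adjusted p = 0.0204). Of 6 early pressure overload genes, Nppb, Ankrd1 and Rcan1 were called higher in both fractions, with Nppb, the B-type natriuretic peptide, at 3297 ± 306 RPKM in band input and 868 ± 5 RPKM in sham input (SD, n = 2 each; limma adjusted p = 0.000576).

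In CAG hearts the members were lower in TRAP than in input RNA. After sham surgery 7 of the 8 tested were called lower, where 24.5% of all genes tested were, and after banding 6 of 8, where 26.0% were. On the log2(RPKM + 1) scale Klf6 had the largest difference of the 8, at 5.14 and 5.81 RPKM in sham TRAP, against 12.4 and 11.7 RPKM in sham input (difference −1.01, SE 0.12; limma adjusted p = 0.00153). As a ratio of mean RPKM, sham TRAP over sham input was 0.426 for Egr1, 0.407 for Egr2 and 0.420 for Egr3, below the 0.455 of Klf6. Klf2 had 15.6 and 18.3 RPKM in sham TRAP, against 30.4 and 30.8 RPKM in sham input (difference −0.82, SE 0.11; limma adjusted p = 0.00188). After sham surgery the other 5 called genes differed by −0.68 for Egr1, −0.66 for Klf10, −0.62 for Klf4, −0.41 for Nr4a1 and −0.39 for Myc on the log2(RPKM + 1) scale. After banding the called differences were −1.05 for Klf6, −0.85 for Klf2, −0.77 for Klf4, −0.72 for Egr1, −0.44 for Klf10 and −0.43 for Myc. Without 1 library at a time, Klf2 and Klf6 kept the call in 4 of 4 fits in each comparison, and Egr1 in 3 of 4 after sham surgery and 4 of 4 after banding. After sham surgery Myc kept it in 1 of 4 and Klf4, Klf10 and Nr4a1 in 0 of 4. After banding Klf4 kept it in 3 of 4, Myc in 2 of 4 and Klf10 in 1 of 4. Leaving out 1 library left 2 to 4 members called after sham surgery and 3 to 7 after banding.

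Klf15 was not called lower in either comparison as reported, and its calls changed with scaling. It had 14.2 and 15.2 RPKM in sham TRAP, against 16.4 and 17.0 RPKM in sham input (difference −0.18, SE 0.10; limma adjusted p = 0.184). After banding it had 13.1 and 15.0 RPKM in TRAP, against 11.0 and 11.8 RPKM in input (difference 0.28, SE 0.10; limma adjusted p = 0.0516). Scaled without mitochondrial and haemoglobin reads, Klf15 was called lower in TRAP after sham surgery (difference −0.39; limma adjusted p = 0.0155) and its difference after banding was 0.064 (limma adjusted p = 0.609). With TMM scaling it was called higher in TRAP after banding (difference 0.41; limma adjusted p = 0.0339), as it was with the 5 RPKM filter (limma adjusted p = 0.0419). Both band TRAP libraries were above, and both sham TRAP libraries below, their input libraries. Nr4a1 after banding, at 3.91 and 4.57 RPKM in TRAP, against 5.13 and 5.55 RPKM in input, was not called (limma adjusted p = 0.0694). Egr2 after banding was called lower in TRAP in the fit with no filter (difference −0.56, SE 0.05; limma adjusted p = 0.00355), where 12.6% of all genes in that fit were called lower.

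Scaling moves all genes in these comparisons. TMM scaling shifted the TRAP to input difference of all genes by 0.10 and 0.11 after sham surgery and banding, and scaling without mitochondrial and haemoglobin reads by −0.19 in both. The split of all genes called after sham surgery was 1763 higher and 2852 lower as reported, 2335 and 2289 with TMM scaling, 894 and 4516 without mitochondrial and haemoglobin reads, and 1570 and 1703 with the length trend removed. After banding it was 1938 higher and 3026 lower as reported, 2549 and 2394 with TMM scaling, 1068 and 4676 without those reads, and 2070 and 2025 with the length trend removed. The 7 members lower after sham surgery stayed below input in sign under each of these scalings, but Nr4a1 lost its call with TMM scaling (limma adjusted p = 0.0946) and with the length trend removed (0.0607). After banding Klf10 lost its call under the same settings (limma adjusted p = 0.0574 and 0.0697). Beside these differences, summed markers of cells other than cardiomyocytes were also lower in TRAP. Fibroblast markers (7 in all) summed to 109.3 to 114.5 RPKM in sham TRAP, against 243.9 to 252.0 RPKM in sham input. The 7 macrophage and leukocyte markers summed to 142.3 to 145.1 RPKM in sham TRAP, against 246.4 to 247.3 RPKM in sham input, and the 8 endothelial markers to 115.0 to 116.9 RPKM in sham TRAP, against 128.4 to 132.5 RPKM in sham input. Gene by gene, limma called lower in sham TRAP 5 of 7 fibroblast, 5 of 6 macrophage and leukocyte and 2 of 8 endothelial markers tested. Of the 7 cardiomyocyte markers, 2 were called lower and 1 higher. The shares of all genes tested were 24.5% lower and 15.1% higher. No marker was at 0, and the part of these cell types in the members' TRAP values was not tested.

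Tie2 TRAP RNA gave the opposite picture. In this single library every member but Klf15 was above Tie2 input, and the members with the highest ratios were the flow-induced factors. Genes at large leaned the same way. The median log2(RPKM + 1) difference from Tie2 input was 0.476 over all genes that passed the filter, against 1.448 for the 8 filtered members. Klf2 had 241.0 RPKM in Tie2 TRAP, against 31.7 RPKM in Tie2 input, 7.61 times as much. Klf4 had 74.1 RPKM in Tie2 TRAP, against 10 RPKM in Tie2 input, 7.40 times as much. Klf6 had 45.8 RPKM in Tie2 TRAP, against 10.6 RPKM in Tie2 input. Klf2 in Tie2 TRAP stood above every other library by far, since its next highest value was 35.5 RPKM in CAG input. With 1 library a side there is no replicate check and no test.

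Egr1 had 8.61 RPKM in Tie2 TRAP, against 2.44 RPKM in Tie2 input, and Nr4a1 had 8.30 RPKM in Tie2 TRAP, against 2.78 RPKM in Tie2 input. Klf10 had 7.35 RPKM in Tie2 TRAP, against 2.13 RPKM in Tie2 input, and Myc had 3.10 RPKM in Tie2 TRAP, against 1.23 RPKM in Tie2 input. Each of these was the highest value of its gene in the 12 libraries. The scarce members followed, with 0.62 RPKM of Egr3 in Tie2 TRAP (34 reads), against 0.11 RPKM in Tie2 input (8 reads), and 0.31 RPKM of Egr2 in Tie2 TRAP (36 reads), against 0.074 RPKM in Tie2 input (11 reads). Egr2 was still higher in band input than there. Klf15 went the other way, with 8.32 RPKM in Tie2 TRAP, against 20.5 RPKM in Tie2 input, the lowest and the highest value of this gene in the 12 libraries.

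Counted at a difference over 1 on the log2(RPKM + 1) scale, 6 of the 8 filtered members were higher in Tie2 TRAP than in Tie2 input and 1 was lower, where 31.5% of all genes were higher and 13.1% lower. Against CAG TRAP without surgery, 7 of 8 were higher in Tie2 TRAP by that measure, where 44.4% of all genes were. CAG TRAP without surgery was lower than CAG input by over 1 for 3 of 8, Klf2, Klf4 and Klf6, where 7.53% of all genes were. Tie2 input and CAG input without surgery differed by over 1 for 0 of 8 members, and the share of all genes doing so was not counted. The median difference of Tie2 input from CAG input was −0.103 for the 8 members and 0.102 over all genes that passed the filter. All 6 other KLF genes tested and all 5 endothelial genes reported under Klf2 and Klf4 control were higher in Tie2 TRAP than in Tie2 input by over 1, among them Nos3, the endothelial nitric oxide synthase, with 26.6 RPKM in Tie2 TRAP, against 3.35 RPKM in Tie2 input. Of the 8 genes reported under Klf15 control, 7 were lower by over 1. Cardiomyocyte markers summed to 3113 RPKM in Tie2 TRAP, against 62910 RPKM in Tie2 input. Endothelial markers summed to 1731 RPKM in Tie2 TRAP, against 162.1 RPKM in Tie2 input, and macrophage and leukocyte markers to 1837 RPKM in Tie2 TRAP, against 203.4 RPKM in Tie2 input. Fibroblast markers summed to 587.1 RPKM in Tie2 TRAP, against 224.5 RPKM in Tie2 input. Smooth muscle and pericyte markers were lower in TRAP, with 172.8 RPKM in Tie2 TRAP, against 315.4 RPKM in Tie2 input. So were erythroid markers, with 488.4 RPKM in Tie2 TRAP, against 2235 RPKM in Tie2 input. No marker of these lists was at 0 in either library, and the part of each cell type in the members' values was not tested.

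**Figure D4:**
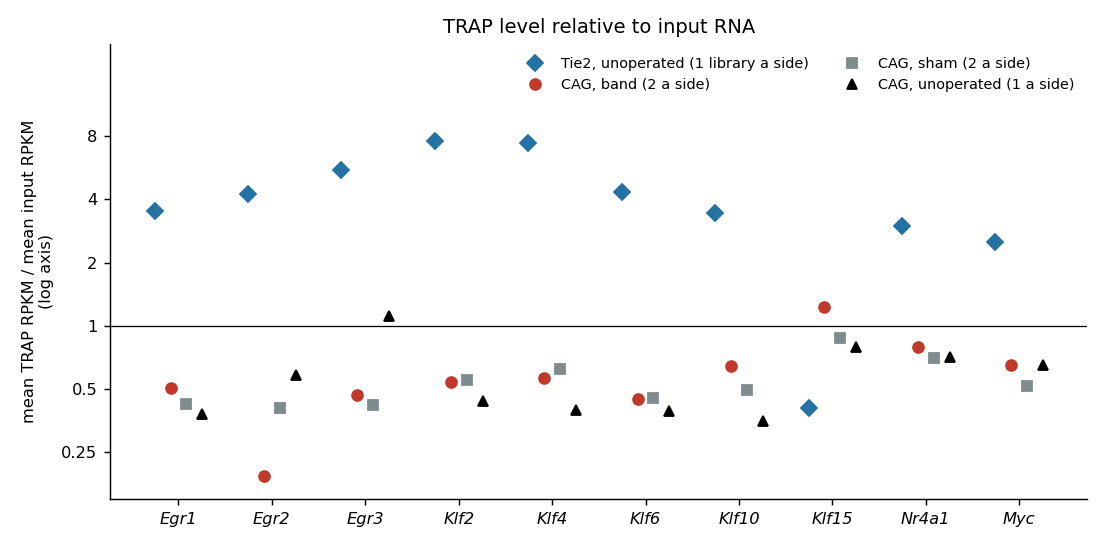
Ratio of mean TRAP RPKM to mean input RPKM on a log axis, with blue diamonds for Tie2 without surgery, red circles for CAG band, grey squares for CAG sham and black triangles for CAG without surgery. Tie2 ratios lie above 1 for 9 genes and below 1 for Klf15, while CAG ratios lie below 1 except Klf15 after banding and Egr3 without surgery. Over all genes tested the median log2(RPKM + 1) difference was 0.476 in Tie2. In CAG it was −0.264 without surgery, −0.09 after sham surgery and −0.097 after banding.

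Sham surgery itself was set against the single CAG library without surgery in input RNA. With 1 library in that arm, the spread in this test comes from the other groups, and the lone library is assumed to vary as they do. Of the 8 members, 1 was called higher, Nr4a1, where 0.772% of all genes tested were called higher. Nr4a1 had 4.87 and 5.55 RPKM in sham input, against 2.30 RPKM in the library without surgery (difference 0.91, SE 0.13; limma adjusted p = 0.0173). The TRAP values, which were not tested, were 3.70 and 3.65 RPKM after sham surgery, against 1.64 RPKM without surgery. The call rests on 1 unoperated library, was lost without either sham library (limma adjusted p = 0.0838 and 0.121) and with limma-voom (adjusted p = 0.0503), and the adjusted p over all alternatives ran from 0.0151 to 0.121. The operated and unoperated libraries stand apart in other ways. Nppa, the A-type natriuretic peptide, which is abundant in atria, averaged 138.8 ± 1.1 RPKM in sham input (SD, n = 2), against 2808 RPKM without surgery, and its part in the Nr4a1 difference was not tested. Egr1 was at 1.99 and 1.70 RPKM in sham input, against 2.96 RPKM without surgery, and was not called (difference −0.48, SE 0.17; limma adjusted p = 0.192).

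Promoter sequences, from RefSeq on the build GRCm38.p6, covered 6 of the 10 genes (Egr2, Klf2, Klf4, Klf6, Klf15 and Nr4a1) in windows of 250 bases before to 50 after an annotated start. The expression table was made on the build NCBIM37, and no coordinates were converted. The windows of 4 genes whose levels the results turn on are printed from 250 to 1 bases before the start, 5′ to 3′ on the gene's own strand, which is plus for all 4. Capitals mark a CArG box, the EGR site GCGGGGGCG and TGACG, the core of the cyclic AMP response element, each on either strand. Egr2, the member with the highest band to sham ratio in input, is shown at chr10:67537619-67537868, and Nr4a1, the NR4A member, at chr15:101266596-101266845. Klf2, with the highest level in Tie2 TRAP, is shown at chr8:72318812-72319061. Klf15, called lower after banding in input RNA but not in TRAP RNA, is shown at chr6:90462326-90462575.
Egr2: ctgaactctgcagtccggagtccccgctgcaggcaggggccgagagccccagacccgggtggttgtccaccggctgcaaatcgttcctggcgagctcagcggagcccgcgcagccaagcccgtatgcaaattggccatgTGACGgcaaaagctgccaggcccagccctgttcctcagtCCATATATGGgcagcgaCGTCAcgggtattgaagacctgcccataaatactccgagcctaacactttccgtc
Nr4a1: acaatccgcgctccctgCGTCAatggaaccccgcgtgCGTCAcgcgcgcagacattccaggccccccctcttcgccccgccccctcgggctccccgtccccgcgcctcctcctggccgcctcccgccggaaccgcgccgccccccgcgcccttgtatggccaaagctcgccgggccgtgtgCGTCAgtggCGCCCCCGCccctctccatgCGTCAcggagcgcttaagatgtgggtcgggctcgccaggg
Klf2: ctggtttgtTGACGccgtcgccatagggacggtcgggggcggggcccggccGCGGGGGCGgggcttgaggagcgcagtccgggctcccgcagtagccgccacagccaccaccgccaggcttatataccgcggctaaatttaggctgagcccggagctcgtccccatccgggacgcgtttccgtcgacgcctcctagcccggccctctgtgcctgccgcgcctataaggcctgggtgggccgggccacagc
Klf15: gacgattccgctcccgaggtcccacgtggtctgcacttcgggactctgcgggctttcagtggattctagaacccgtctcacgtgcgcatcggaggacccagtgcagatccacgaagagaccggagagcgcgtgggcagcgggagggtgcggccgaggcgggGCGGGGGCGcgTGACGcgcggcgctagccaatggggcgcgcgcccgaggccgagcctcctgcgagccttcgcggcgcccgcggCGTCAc
The Egr2 window holds a CArG box from −72 to −63 (the start counted as 0), with TGACG cores at −111 and −55 on either side of it. A CArG box was found in 1.63% of 32817 windows and in 1 of the 6 members. Of the 5 windows listed for Egr2, the third is shown. A gene was counted when any of its windows held the letters, so the GC box and E box counted for Egr2 lie in other windows than the one shown. The percentages are shares of windows (32817 windows of 26994 genes), while the members are counted as genes (6 genes with 10 windows). The 2 are therefore in unlike units, and counting by gene favours the members. The Nr4a1 window holds 4 TGACG cores on the minus strand, from −233 to −36, with an EGR site from −60 to −52. TGACG occurs in 20.8% of windows and in 5 of the 6 members. EGR sites lie from −199 to −191 in Klf2 and from −89 to −81 in Klf15, and these letters occur in 2.91% of windows and in 4 of the 6 members, Klf4 being the other. In each of these 4 genes the EGR site overlaps the GC box GGGCGG, which occurs in 35.6% of windows. The E box CACGTG, a site that MYC and its partner MAX can bind, occurs in 7.15% of windows and in 4 of the 6, 3 times in Klf15. CACCC was found in 57.5% of windows and 3 of the 6 members, while the full cyclic AMP response element TGACGTCA (1.79% of windows) and the NR4A element AAAGGTCA (1.51%) were found in 0 of the 6. These are matches of letters, and no binding was measured.

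**Figure D5:**
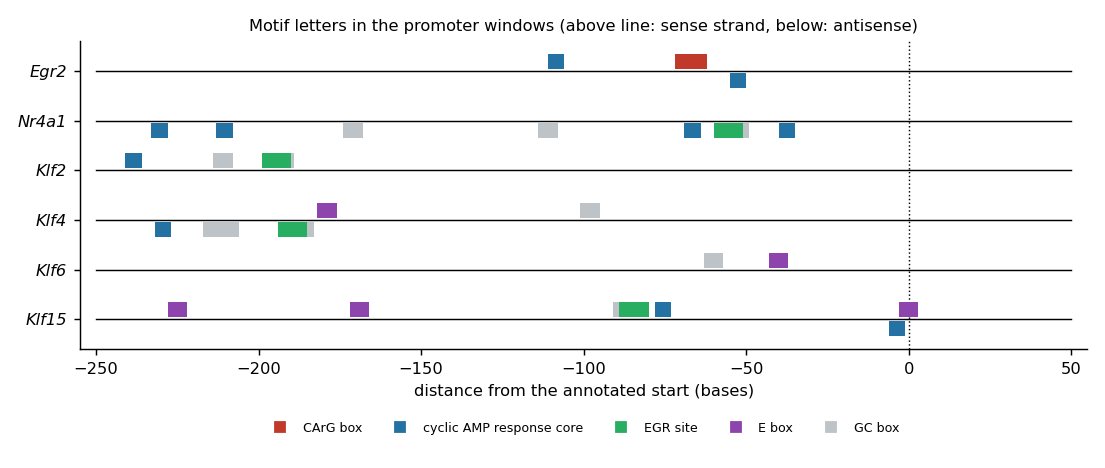
Positions of motif letters from 250 bases before to 50 after the annotated start of 6 members (for Egr2, the window printed), drawn above the line for the sense and below it for the antisense strand. Egr2 alone holds a CArG box, Nr4a1 has 4 cyclic AMP response cores, and an EGR site lies in Nr4a1, Klf2, Klf4 and Klf15.

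The genes whose pattern was most like that of each member were found by Pearson's correlation of log2(RPKM + 1) over the 8 CAG sham and band libraries, among 5494 genes with a mean of 5 RPKM or more. The libraries share 4 conditions, so these values describe a common ordering of conditions and carry no test. For Myc the closest were Ankrd1 (r = 0.994), a stretch-responsive cardiac gene, and the acute phase genes Saa3 (0.992) and Serpina3n (0.990). Saa3 averaged 20.8 RPKM in band input and 3.19 RPKM in sham input. For Egr1 they were Tuba1a (0.992), Sik1 (0.985) and Dync1i2 (0.983). Klf15 had no neighbour as close, with Dynll2 at 0.936, Taf6 at 0.918 and Egln1, an oxygen-sensing prolyl hydroxylase, at 0.913. The 3 nearest genes of Klf2, Klf4, Klf6, Klf10 and Nr4a1 had correlations of 0.974 to 0.998, led by Sod3, Kif5b, Dnajc5, Kif1b and Psmc5.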

How the data were processed

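RPKM values were deposited by the authors for 34306 genes in 12 libraries, with 1 transcript identifier and its length per gene. The submitters' processing notes name CASAVA 1.8.2, TopHat 1.4, HTSeq 0.5.3 and the build NCBIM37. Libraries were unstranded, so reads of a gene and an antisense partner cannot be told apart. Columns were matched by name to the later of 2 deposits, whose titles fit them as a set; some names alone would also fit the first deposit, which was not analysed here. Multiplied by length, 233410 of 233410 positive values were whole reads within 0.02 reads. The 11654 genes reaching 1 RPKM in 2 or more libraries entered limma 3.58.1 in R 4.3.3 (log2(RPKM + 1), variance trend, group means, two-sided, 4 residual and 3.02 prior degrees of freedom); a shared spread may make p-values too small where a group varies more. The steps were tested on simulated data. Python 3.11.15 made tables and searched promoter letters; windows on 1 chromosome were not used here. Alternatives were other pseudocounts, filters and scalings, a replicate block, leaving out libraries and limma-voom. All 10 members were named whatever their values, with the called list genes of largest difference. Members, lists and motifs were chosen with earlier results of these data known. Besides the lists in the report, 10 glucocorticoid-responsive genes were counted.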

Additional observations from a re-analysis of the deposited data

Results flagged for a closer look

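TRAP and input RNA moved in opposite directions in the single Tie2 pair and the single CAG pair without surgery for 7 of the 8 members that passed the filter, and with 1 library a side the difference was not tested. Opposite signs are also the pattern of the median over all genes that passed the filter. That median of TRAP minus input was 0.476 in Tie2 and −0.264 in CAG, against 1.448 and −0.894 for the 8 members. The share of all genes with opposite signs was not counted. On the log2(RPKM + 1) scale, Tie2 TRAP minus Tie2 input exceeded CAG TRAP minus CAG input by 4.03 for Klf2 (2.89 and −1.14), 3.94 for Klf4 (2.77 and −1.17) and 3.19 for Klf6 (2.02 and −1.18). The excess was 2.38 for Egr1, 2.30 for Klf10, 1.62 for Nr4a1 and 1.15 for Myc. Egr2, below the filter, also had opposite signs (0.29 in Tie2 and −0.075 in CAG).

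For Klf15, TRAP lay above input in both band libraries and below it in both sham libraries, with differences of 0.28 after banding and −0.18 after sham surgery. The change between them was 0.455, and the test of that change did not pass (limma adjusted p = 0.901).

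Sham minus unoperated values had opposite signs in TRAP and input RNA for 2 of the 8 members that passed the filter, against 1 unoperated library in each fraction. The share of all genes with opposite signs here was not counted either. The 2 members were Klf2 and Klf4. The values were 0.12 in TRAP and −0.21 in input for Klf2, a change of 0.325, and 0.40 in TRAP and −0.15 in input for Klf4, a change of 0.553, and neither was tested. Egr3, below the filter, also had opposite signs (−0.096 in TRAP and 0.0068 in input).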

How the results depend on the processing

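The tests by edgeR and DESeq2 listed as alternatives were not run, since the deposited values are RPKM; limma-voom on recovered reads was chosen after seeing the data. Of all values of single members under the alternatives, 522 kept their direction and side of the threshold, 64 lost the call, 9 gained it and 31 changed sign, and no cause was tested. With a 5 RPKM filter, which drops Egr1, Klf10 and Myc, members called went to 4 (7 as reported) for TRAP against input after sham surgery, 1 (3) for band against sham in input and 0 (2) in TRAP RNA; no filter gave 1 in TRAP RNA. Sham against no surgery gave 0 (1) with limma-voom, filtered or not. Leaving out 1 library gave 2 to 4 members for TRAP against input after sham surgery, 3 to 7 after banding, 0 to 0 for band against sham in input, 0 to 5 in TRAP RNA and 0 to 0 for sham against no surgery.

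Replicate numbers did not pair the libraries (correlations of deviations −0.276, 0.021, −0.058 and −0.516 over 5825 genes). With the replicate block, band against sham in TRAP RNA gave 1 member (2 without), and over all genes 263 calls (439), and in input 265 (476).

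Over all genes, band against sham in TRAP RNA gave 207 calls with no filter and 33 to 1971 without 1 library (439 as reported), and in input 285 with unfiltered limma-voom and 26 to 68 without 1 library (476). TRAP against input gave 1917 to 2294 without 1 library after sham surgery (4615), and after banding 3284 with the 5 RPKM filter and as few as 2779 without 1 library (4964). Sham against no surgery gave 857 with no filter, 156 with unfiltered limma-voom and 54 to 73 without 1 library (273). The effect of banding on the ratio of TRAP to input gave 2 with a pseudocount of 0.1 or no filter and up to 197 without 1 library (0).

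Every change of sign was in a difference that was not called. For the effect of banding on the ratio of TRAP to input, Egr1 was 0.23 with a pseudocount of 0.1, 0.00080 with TMM scaling and 0.29 with limma-voom, filtered or not (0.2863 and 0.2857), and Myc was 0.26, 0.011, 0.38 and 0.38 (0.3816 and 0.3819). Without 1 library that effect ran from −0.22 to 0.15 for Egr1, −0.14 to 0.072 for Myc, −0.14 to 0.081 for Klf2, −0.37 to 0.081 for Klf4 and −0.19 to 0.10 for Klf6, and unfiltered limma-voom gave 0.11 for Egr3. Band against sham in input ran from −0.13 to 0.056 for Klf2, −0.078 to 0.12 for Klf10 and −0.049 to 0.11 for Nr4a1 without 1 library. In TRAP RNA it ran from −0.18 to 0.043 for Klf2, −0.014 to 0.44 for Klf4 and −0.15 to 0.029 for Klf15. Sham against no surgery ran from −0.045 to 0.036 for Myc, and unfiltered limma-voom gave −0.045 for Egr3. Depth limits Egr2 and Egr3, with 2 to 73 reads per library.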

Other observations

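The metallothioneins Mt1 and Mt2, metal-binding proteins induced by glucocorticoids and stress, were called higher after banding among 10 glucocorticoid-responsive genes. Klf15, also known to be induced by glucocorticoids, was called lower in band input, a call lost under other settings. The part of glucocorticoids in these values was not tested. Mt2 averaged 1558 ± 198 RPKM in band input and 710.6 ± 36.3 RPKM in sham input (SD, n = 2 each; limma adjusted p = 0.0185), against 250.4 RPKM in the single CAG input library without surgery. Mt1 averaged 2796 ± 193 RPKM in band input and 1878 ± 93 RPKM in sham input (SD, n = 2 each; limma adjusted p = 0.0219). Dusp1 was the list's 1 gene called lower in input, and 2 were called higher and 0 lower in TRAP RNA (Mt2 2559 ± 634 RPKM after banding and 1174 ± 17 RPKM after sham surgery, SD, n = 2 each; limma adjusted p = 0.0203). Fkbp5, Tsc22d3, Zbtb16, Per1, Sgk1, Klf9 and Nr3c1 were not called with banding in either fraction. Of all genes tested, 2.44% were called higher and 1.65% lower in input RNA, and 2.21% higher and 1.56% lower in TRAP RNA.

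Of 7 MYC partners and antagonists tested, 6 exceeded Tie2 input by over 1 on the log2(RPKM + 1) scale in the single Tie2 TRAP library, where 31.5% of all genes did. Of 12 genes reported as MYC targets, 2 were higher and 1 lower by that measure, where 31.5% of all genes were higher and 13.1% lower. Max had 82.9 RPKM in Tie2 TRAP, against 36.7 RPKM in Tie2 input. Mxd4, a MYC antagonist, had 229.1 RPKM in Tie2 TRAP, against 34.9 RPKM in Tie2 input. Nab1 and Nab2, the EGR corepressors, had 7.85 and 8.95 RPKM in Tie2 TRAP, against 1.05 and 3.46 RPKM in Tie2 input.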
